A study of Mus musculus with 12 samples.

Results

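The genes for 10 C-type lectin receptors of myeloid cells were followed in RNA sequencing (RNA-seq) of bone marrow-derived macrophages (BMDMs): Clec4a1, Clec4a2, Clec4a3, Clec4d, Clec4e, Clec4n, Clec5a, Clec7a, Clec10a and Clec12a. They were chosen by gene symbol, with earlier results of these data known, and made up 10 of the 55335 genes in the deposited table, in which each symbol had a row. BMDMs are macrophages grown in culture from mouse bone marrow, here with macrophage colony-stimulating factor, from C57BL/6 mice that were wild type or lacked Nlrp3 in every cell (Nlrp3-/-), the mice of each genotype coming from a different supplier. In each genotype, 3 libraries came from untreated control cells and 3 from cells given lipopolysaccharide (LPS) and then adenosine triphosphate (ATP), which gives 12 libraries in 4 groups. The NLRP3 inflammasome is primed by LPS and set off by ATP. The sample labels give LPS for 4 hours followed by ATP for 30 minutes, whereas the methods of the study give longer exposures to both. Nothing in the labels says that the 3 libraries of a group came from separate mice or cultures, so the p-values measure the spread between these libraries, which may be technical. Levels are in FPKM (fragment counts divided by gene length and by the mapped fragments of the library), and means are of 3 libraries with their SD.

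C-type lectin receptors sit on the surface of macrophages, dendritic cells and granulocytes and bind sugars and lipids of microbes or ligands from damaged cells. The activating receptors signal through an immunoreceptor tyrosine-based activation motif (ITAM) in the partner chain FcRγ (Fcer1g) or DAP12 (Tyrobp), or through an ITAM-like motif in their own tail, as in dectin-1 (Clec7a). Either motif recruits the kinase Syk and the CARD9, BCL10 and MALT1 complex upstream of NF-κB. The inhibitory receptors, such as DCIR (Clec4a2) and MICL (Clec12a), carry an inhibitory motif that recruits the phosphatases SHP-1 (Ptpn6) and SHP-2 (Ptpn11).

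By GENCODE release M21, which is on an older mouse build than the GRCm39 named in the labels, 9 of the 10 genes lie on chromosome 6 and Clec10a lies on chromosome 11. Promoter windows, from 250 bases before to 50 bases after a transcript start, were found in RefSeq (GRCm38.p6) for 8 of the 10 genes, in 10 windows. Those of Clec4d and Clec4e, neighbours whose RNA rose with LPS+ATP, and of Clec4a2 and Clec12a, whose RNA fell, are shown here 5′ to 3′ on the strand of the gene. Capitals mark matches, on either strand, to the letters GAGGAA (a PU.1-type motif; PU.1 is a master transcription factor of myeloid cells), TTGCNNAA (C/EBP type), TGANTCA (AP-1 type), GAAANNGAA (interferon-response type) or GGNNTTTCC (NF-κB type), and overlapping matches run together.
Clec4d (chr6:123261857-123262156, plus strand): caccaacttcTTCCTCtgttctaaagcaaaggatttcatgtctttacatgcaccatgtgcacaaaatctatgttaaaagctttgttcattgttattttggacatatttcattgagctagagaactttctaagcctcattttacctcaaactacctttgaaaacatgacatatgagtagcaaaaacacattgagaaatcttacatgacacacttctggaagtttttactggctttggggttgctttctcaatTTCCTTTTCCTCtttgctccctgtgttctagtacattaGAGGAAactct
Clec4e (chr6:123289822-123290121, minus strand): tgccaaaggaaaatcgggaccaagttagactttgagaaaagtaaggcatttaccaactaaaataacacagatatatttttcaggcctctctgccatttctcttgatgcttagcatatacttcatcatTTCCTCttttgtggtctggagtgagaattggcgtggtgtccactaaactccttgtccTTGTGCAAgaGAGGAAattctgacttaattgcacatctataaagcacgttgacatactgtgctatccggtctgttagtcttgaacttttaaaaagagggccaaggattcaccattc
Clec4a2 (chr6:123122440-123122739, plus strand): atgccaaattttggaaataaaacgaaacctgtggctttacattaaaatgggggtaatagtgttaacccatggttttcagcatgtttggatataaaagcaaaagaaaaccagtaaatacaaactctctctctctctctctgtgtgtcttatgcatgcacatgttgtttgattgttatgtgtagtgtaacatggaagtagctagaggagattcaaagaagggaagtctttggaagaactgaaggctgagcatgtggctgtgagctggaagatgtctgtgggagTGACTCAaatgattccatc
Clec12a (chr6:129349994-129350293, plus strand): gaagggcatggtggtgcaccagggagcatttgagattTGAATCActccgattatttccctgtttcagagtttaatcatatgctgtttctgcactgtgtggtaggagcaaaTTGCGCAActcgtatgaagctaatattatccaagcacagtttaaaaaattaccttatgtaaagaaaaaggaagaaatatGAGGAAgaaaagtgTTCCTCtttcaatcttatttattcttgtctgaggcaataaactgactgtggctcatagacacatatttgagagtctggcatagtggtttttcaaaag

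The PU.1-type letters were in 8 of the 10 windows, against 28.3% of 32851 promoter windows of the same length. Counted by gene, they were in windows of 7 of the 8 genes, the exception being Clec4a2. Clec4a3 and Clec7a each had overlapping windows. In Clec4d the matches began 240 bases before and 8 and 40 bases after the start, the middle one overlapping the interferon-response type match, and in Clec4e they began 123 and 56 bases before it. The C/EBP-type letters were in Clec4e and Clec12a (10.8% of all windows), and the AP-1-type letters in Clec4a2 and Clec12a (7.81%). The interferon-response type letters were in Clec4d (8.56%). The NF-κB-type letters were in 0 of the 10 windows and in 5.82% of all windows. These matches describe letters only and show no binding.

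The knockout was checked first. Nlrp3 was 9.68 ± 0.425 FPKM in wild-type control and 32.9 ± 0.801 FPKM in wild-type LPS+ATP BMDMs, and it was listed at 0 in all 6 Nlrp3-/- libraries. The genotypes differed in more than Nlrp3. Xist was 32.8 to 56.3 FPKM in Nlrp3-/- and at most 0.0416 FPKM in wild-type libraries, and Ddx3y, Eif2s3y, Kdm5d and Uty of the Y chromosome were listed at 0 in 6 of 6 Nlrp3-/- libraries and above 0 in 6 of 6 wild-type libraries, so that genotype and donor sex cannot be told apart. Nnt, which differs between C57BL/6 substrains, was 4.09 to 10.3 FPKM in wild-type and 0.670 to 1.47 FPKM in Nlrp3-/- libraries. Summed levels of marker lists also moved with genotype and stimulation. All 7 macrophage markers reached 1 FPKM in at least 1 library of each group. Their sum, 18944 to 20971 FPKM in control and 10516 to 11273 FPKM in LPS+ATP libraries, was mostly Lyz2 (18464 and 9472 FPKM in wild type), and members moved both ways, since Cd68 went from 1450 to 814 FPKM and Adgre1 from 237 to 460 and Fcgr1 from 51.2 to 204 FPKM with LPS+ATP in wild type. Between genotypes in control, Cd68 (877 FPKM), Csf1r (164 against 253 FPKM), Adgre1 (184 FPKM) and Fcgr1 (38.5 FPKM) were lower in Nlrp3-/- cells. Lyz2 was 17693 against 18464 FPKM and Itgam 81.6 ± 41.0 against 92.9 ± 34.6 FPKM, whereas Mertk was higher (34.1 against 32.4 FPKM). The list's median log2 difference was -0.36 against 0.09 for all tested genes. With LPS+ATP that median was -0.39 against 0.11, while Csf1r was 176 FPKM in Nlrp3-/- and 178 FPKM in wild-type cells. In control cells, 9 of 10 neutrophil and granulocyte precursor markers reached 1 FPKM in both genotypes, with summed levels from 337 to 373 FPKM (wild type) and from 1824 to 1876 FPKM (Nlrp3-/-). With LPS+ATP, 4 of 10 in wild type and 7 of 10 in Nlrp3-/- did, with sums of 110 to 127 and 491 to 523 FPKM. Of the 4 monocyte markers, 4 reached 1 FPKM in control groups and 2 (wild type) or 3 (Nlrp3-/-) with LPS+ATP, and they summed to 22.5 to 28.9 FPKM in wild-type control, 67.2 to 83.0 in Nlrp3-/- control, 72.3 to 73.8 in wild-type LPS+ATP and 128 to 189 in Nlrp3-/- LPS+ATP. Most of the monocyte sum was Ly6c2 (17.6 to 69.7 FPKM with LPS+ATP in wild type and 64.1 to 148 FPKM in Nlrp3-/- cells), whereas Ccr2 (2.06 to 0.103 FPKM) and Cx3cr1 (3.81 to 0.513 FPKM) fell in wild type. The 5 fibroblast markers, all reaching 1 FPKM in a library of each group, summed to 157 to 183 FPKM in wild-type and 890 to 1180 FPKM in Nlrp3-/- libraries. The 7 dendritic cell markers summed to at most 5.62 FPKM, at most 1 of them reaching 1 FPKM in a group, with Cd209a and Siglech listed at 0 in all LPS+ATP libraries, and the 4 lymphoid markers, at most 1 of them reaching 1 FPKM in a group, to at most 1.82 FPKM. The part of such cells in the receptor levels was not tested, and in bulk RNA fewer cells of a type and less RNA per cell cannot be told apart.

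In wild-type control BMDMs the 10 genes ran from Clec4n, at 208 ± 6.16 FPKM, down through Clec4d (178 ± 5.58), Clec7a (143 ± 11.3), Clec4a1 (64.3 ± 2.15), Clec12a (59.5 ± 0.440), Clec4a3 (41.2 ± 5.63), Clec4a2 (23.6 ± 0.452), Clec5a (13.0 ± 0.779) and Clec4e (11.4 ± 0.184) to Clec10a (6.06 ± 0.337). FPKM is per length, so levels of genes can be set side by side. The libraries of no neighbouring genes in this order overlapped. With LPS+ATP, Clec4e moved from the ninth place to the first in both genotypes. In wild-type LPS+ATP libraries Clec4a1 and Clec7a overlapped (87.5 to 94.6 against 83.6 to 89.2 FPKM), and in Nlrp3-/- control libraries Clec5a and Clec4e overlapped (16.5 to 16.9 against 14.8 to 16.9 FPKM). In Nlrp3-/- control cells Clec7a, not Clec4n, was the highest of the 10. Among the 12622 tested genes, those with at least 1 FPKM in at least 3 libraries, to which all 10 belonged, Clec4e, Clec4n and Clec4d ranked 57, 69 and 72 by mean FPKM in wild-type LPS+ATP BMDMs.

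**Figure D1:**
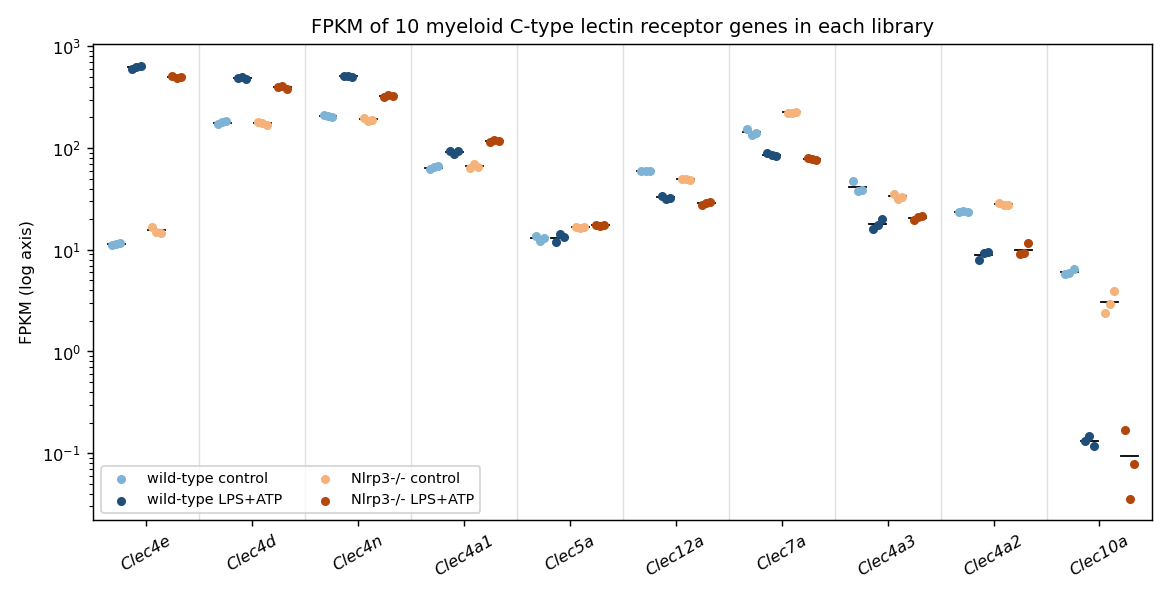
FPKM of the 10 receptor genes (log axis) in each of the 12 libraries, as points colored by group, with a line at each mean of 3 libraries. Clec4e stands at 11.2 to 16.9 FPKM in control and 488 to 646 FPKM in LPS+ATP libraries, and Clec10a is at most 0.171 FPKM in LPS+ATP libraries.

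LPS+ATP raised 3 of the 10 genes and lowered 3 in wild-type BMDMs beyond the limits used to call a gene, which were a change of at least 1 on the log2(FPKM + 1) scale and a limma p, adjusted by Benjamini-Hochberg, under 0.05. Clec4e, Clec4d and Clec4n were called higher and Clec10a, Clec4a2 and Clec4a3 lower. Over all tested genes, 8.25% were called higher and 11.2% lower. Without the fold limit, 4 were higher and 5 lower, beside 23.3% and 53.1% of all tested genes. In Nlrp3-/- BMDMs 2 genes, Clec4e and Clec4d, were called higher and 3, Clec10a, Clec7a and Clec4a2, lower, beside 6.64% and 8.21% of tested genes. Without the fold limit the counts were 4 and 5, beside 20.6% and 53.8%. The median log2 fold change of the 10 genes was -0.35 in wild type and -0.31 in Nlrp3-/- cells, and that of all tested genes was -0.26 and -0.24.

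**Figure D2:**
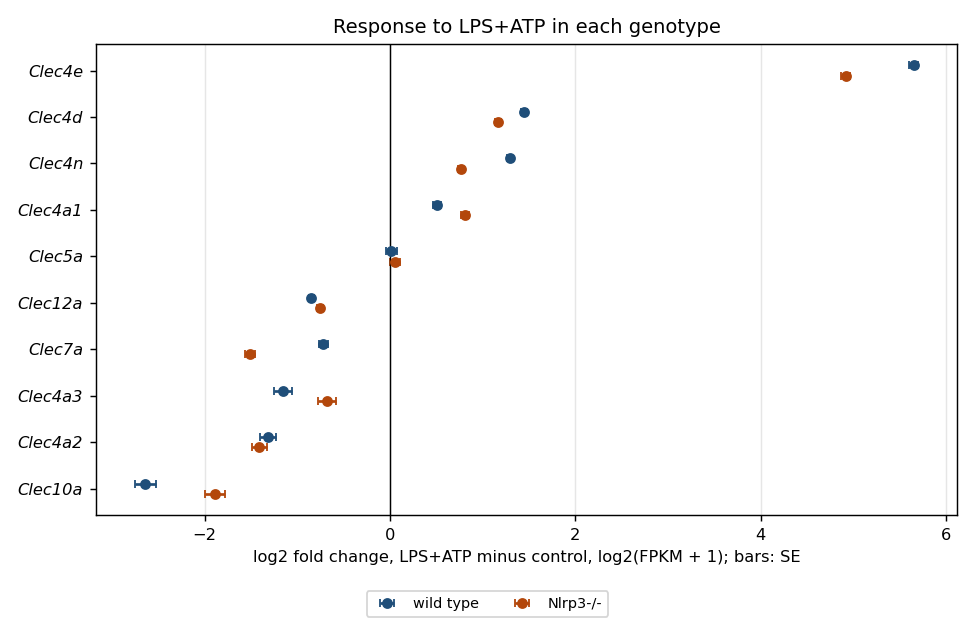
Log2 fold change of each receptor gene with LPS+ATP (x axis, on log2(FPKM + 1)) in wild-type and Nlrp3-/- BMDMs, with bars for the SE. Clec4e lies farthest to the right at 5.65 and 4.92, Clec5a lies near 0 in both genotypes, and Clec10a lies farthest to the left at -2.64 and -1.89.

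Clec4e encodes Mincle, a receptor for mycobacterial cord factor and for a protein released by dying cells. Its level was 11.2, 11.3 and 11.6 FPKM in wild-type control libraries and 592.5, 625 and 646 FPKM with LPS+ATP. In Nlrp3-/- cells it was 16.9, 15.04 and 14.8 FPKM in control and 510, 488 and 499 FPKM with LPS+ATP. No 2 of the 4 groups overlapped, control being higher in Nlrp3-/- and LPS+ATP higher in wild type. The means rose 54.7-fold in wild type and 32.0-fold in Nlrp3-/- cells. On the log2(FPKM + 1) scale the change was 5.65 ± 0.0482 (SE, adjusted p = 3.1e-15) and 4.92 ± 0.0482 (adjusted p = 9.4e-15), which ranked 28 and 36 from the highest of 12622 genes.

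Clec4d encodes MCL, a receptor that pairs with Mincle. It was 172, 179 and 183 FPKM in wild-type control and 488, 495 and 476 FPKM with LPS+ATP. Nlrp3-/- cells had 179, 177 and 170 FPKM in control and 403, 405 and 377 FPKM with LPS+ATP. The control libraries of the genotypes overlapped, whereas all 3 Nlrp3-/- LPS+ATP libraries lay below all 3 of wild type. The rise was 2.73-fold in wild type (log2 1.45 ± 0.0353, adjusted p = 1.2e-11) and 2.25-fold in Nlrp3-/- (log2 1.17 ± 0.0353, adjusted p = 1.0e-10).

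Clec4n encodes dectin-2, a receptor for fungal mannans that signals through FcRγ. It was 214, 208 and 201 FPKM in wild-type control and 514, 512.5 and 505 FPKM with LPS+ATP. Nlrp3-/- libraries held 196, 187 and 190 FPKM in control and 321, 330 and 323 FPKM with LPS+ATP. Nlrp3-/- libraries lay below wild-type libraries in both states, and the gap was wider with LPS+ATP. The rise was 2.46-fold in wild type (log2 1.29 ± 0.0283, adjusted p = 4.9e-12) and 1.70-fold in Nlrp3-/- (log2 0.76 ± 0.0283, adjusted p = 6.5e-10), the latter short of the fold limit. Median-ratio scaling, which sets the typical gene of each library equal, brought it to 1.05.

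Clec4a1, of the DCIR family (DCIR4), was the other gene that rose. It was 62.0, 64.9 and 66.1 FPKM in wild-type control and 94.6, 87.5 and 93.9 FPKM with LPS+ATP, against 63.2, 69.7 and 65.7 and then 114.5, 119 and 117 FPKM in Nlrp3-/- cells. Here the Nlrp3-/- libraries were the higher ones with LPS+ATP, and the control libraries overlapped. The rise was 1.43-fold in wild type (log2 0.51 ± 0.0434, adjusted p = 7.4e-07) and 1.77-fold in Nlrp3-/- (log2 0.81 ± 0.0434, adjusted p = 1.6e-08), and with median-ratio scaling the latter was 1.10 on the log2 scale, past the fold limit.

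The genes of the inhibitory receptors DCIR and MICL fell with LPS+ATP. Clec4a2 encodes DCIR, and its level was 23.4, 24.1 and 23.3 FPKM in wild-type control and 7.93, 9.24 and 9.55 FPKM with LPS+ATP. In Nlrp3-/- cells it was 29.1, 27.6 and 27.6 and then 9.15, 9.22 and 11.6 FPKM. Control and LPS+ATP libraries did not overlap in either genotype, and the fall was 2.65-fold in wild type (log2 -1.32 ± 0.0844, adjusted p = 5.9e-08) and 2.81-fold in Nlrp3-/- (log2 -1.41 ± 0.0844, adjusted p = 4.3e-08). Clec12a encodes MICL, a receptor for uric acid crystals. It was 59.0, 59.7 and 59.9 FPKM in wild-type control and 33.7, 31.9 and 32.4 FPKM with LPS+ATP, and 49.4, 49.2 and 49.1 and then 27.7, 28.9 and 29.6 FPKM in Nlrp3-/- cells. The 4 groups did not overlap. Clec12a fell 1.82-fold in wild type (log2 -0.85 ± 0.0320, adjusted p = 5.4e-10) and 1.71-fold in Nlrp3-/- (log2 -0.76 ± 0.0320, adjusted p = 2.0e-09), short of the fold limit in both. Median-ratio scaling made the falls smaller. In wild type and Nlrp3-/- cells they were then -0.53 and -0.47 for Clec12a and -1.01 and -1.13 for Clec4a2.

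Clec4a3, the DCIR3 gene, was 47.7, 37.7 and 38.3 FPKM in wild-type control and 16.1, 17.5 and 20.0 FPKM with LPS+ATP. Its levels in Nlrp3-/- cells were 35.7, 31.8 and 33.1 FPKM in control and 19.4, 20.9 and 21.5 FPKM with LPS+ATP. The first wild-type control library stood above the other two, and the LPS+ATP libraries of the genotypes overlapped. It fell 2.30-fold in wild type (log2 -1.16 ± 0.0962, adjusted p = 5.9e-07) and 1.63-fold in Nlrp3-/- (log2 -0.68 ± 0.0962, adjusted p = 6.6e-05). The wild-type value passed the fold limit with the deposited scaling and not with upper-quartile (-0.99) or median-ratio scaling (-0.84).

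Clec7a encodes dectin-1, the receptor for fungal β-glucan. It was 155, 133 and 140 FPKM in wild-type control and 89.2, 86.2 and 83.6 FPKM with LPS+ATP. In Nlrp3-/- cells it was 219, 223 and 229 FPKM in control and 80.0, 77.3 and 76.3 FPKM with LPS+ATP. The genotypes were thus apart in both states and in opposite order, with Nlrp3-/- cells higher in control and lower with LPS+ATP. The fall was 1.66-fold in wild type (log2 -0.72 ± 0.0497, adjusted p = 1.1e-07) and 2.87-fold in Nlrp3-/- (log2 -1.51 ± 0.0497, adjusted p = 2.2e-10). Median-ratio scaling brought the log2 values to -0.39 and -1.22. GENCODE M21 lists the gene as a polymorphic pseudogene.

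Clec10a encodes the galactose-type lectin MGL1 (CD301a), which binds terminal galactose and is a common marker of alternatively activated macrophages. It was 5.83, 5.91 and 6.45 FPKM in wild-type control and 0.131, 0.147 and 0.117 FPKM with LPS+ATP. In Nlrp3-/- cells it was 2.42, 2.94 and 3.93 FPKM in control and 0.171, 0.0357 and 0.0778 FPKM with LPS+ATP. Control was lower in Nlrp3-/- than in wild-type libraries without overlap, and all LPS+ATP libraries were near 0. The means fell 46.0-fold in wild type and 32.7-fold in Nlrp3-/- cells, while the log2(FPKM + 1) scale, which understates changes of low genes, gave -2.64 ± 0.111 (adjusted p = 1.4e-09) and -1.89 ± 0.111 (adjusted p = 3.7e-08). Its values are uncertain where reads are shared with its near copy Mgl2, which matched 735 bases, or 31.5% of the longest Clec10a transcript, at 96.05% identity. Mgl2 itself was 1.23 ± 0.203 and 0.0504 ± 0.0379 FPKM in wild-type control and LPS+ATP cells and 0.919 ± 0.0408 and 0.0546 ± 0.0750 FPKM in Nlrp3-/- cells. None of the other 9 genes had such a copy, at 95% identity over at least 20% of the transcript.

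Clec5a encodes MDL-1, which signals through DAP12 and DAP10. It was 13.7, 12.2 and 13.1 FPKM in wild-type control and 12.004, 14.3 and 13.2 FPKM with LPS+ATP, and 16.8, 16.5 and 16.9 and then 17.5, 17.3 and 17.3 FPKM in Nlrp3-/- cells. All 6 Nlrp3-/- libraries lay above all 6 wild-type libraries. LPS+ATP did not change it past the test with the deposited scaling (log2 0.02 ± 0.0572, adjusted p = 0.81 in wild type, and 0.05 ± 0.0572, adjusted p = 0.42 in Nlrp3-/-). It did pass after upper-quartile scaling, at 0.18 (adjusted p = 0.014) and 0.17 (adjusted p = 0.019). After median-ratio scaling the values were 0.32 (adjusted p = 0.00039) and 0.33 (adjusted p = 0.00043), that scaling having moved the median of all tested genes by 0.25 and 0.23.

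Summed over the 10 genes, receptor RNA was 748 ± 14.5 FPKM in wild-type control and 1869 ± 17.7 FPKM in wild-type LPS+ATP BMDMs, and 803 ± 4.45 and 1491 ± 15.2 FPKM in Nlrp3-/- cells. Clec4e held 1.52% of the sum in wild-type control and 33.2% with LPS+ATP, and 1.94% and 33.5% in Nlrp3-/- cells. Clec4n and Clec4d together with Clec4e made up most of the sum with LPS+ATP, Clec4n holding 27.3% in wild type and 21.8% in Nlrp3-/- cells and Clec4d 26.0% and 26.5%. Clec7a held 19.1% in wild-type and 27.9% in Nlrp3-/- control cells, and 4.62% and 5.22% with LPS+ATP.

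**Figure D3:**
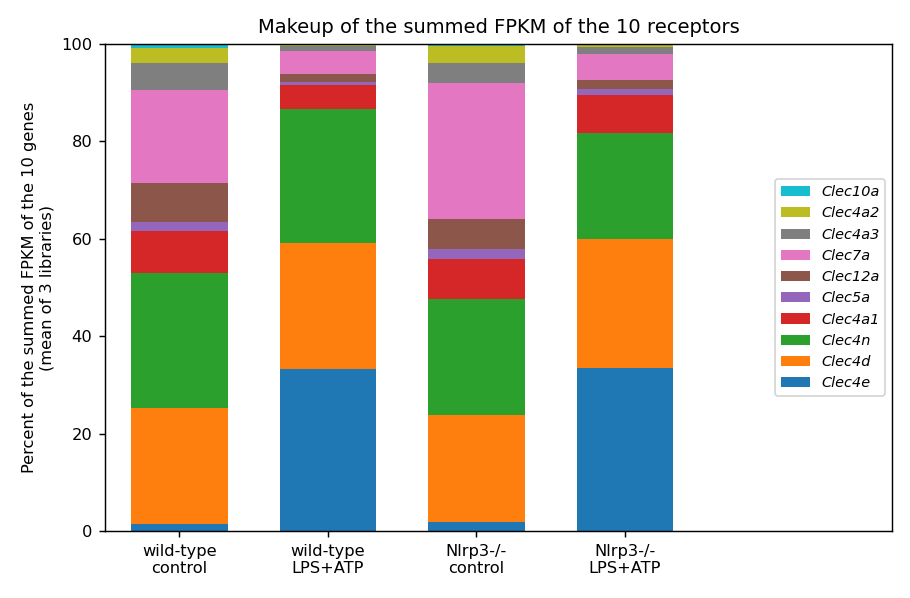
Share of each gene in the summed FPKM of the 10 receptor genes (y axis, percent, mean of 3 libraries) in the 4 groups. The Clec4e block grows from 1.52% to 33.2% in wild type and from 1.94% to 33.5% in Nlrp3-/- BMDMs, and the Clec7a block shrinks to 4.62% and 5.22%.

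The question of whether Nlrp3 loss goes with other receptor levels was then asked in each state. In control cells 0 of the 10 genes were called in either direction, beside 6.02% of tested genes called higher and 0.689% called lower in Nlrp3-/- cells. At an adjusted p under 0.05 with no fold limit, 4 were higher and 4 lower, beside 33.3% and 14.5% of tested genes. Clec7a was higher by 0.64 ± 0.0497 on the log2 scale (adjusted p = 8.4e-07), Clec4e by 0.42 ± 0.0482 (adjusted p = 2.4e-05), Clec5a by 0.34 ± 0.0572 (adjusted p = 0.00045) and Clec4a2 by 0.24 ± 0.0844 (adjusted p = 0.035). Clec10a differed by -0.80 ± 0.111 (adjusted p = 0.00011), Clec4a3 by -0.28 ± 0.0962 (adjusted p = 0.032), Clec12a by -0.27 ± 0.0320 (adjusted p = 3.1e-05) and Clec4n by -0.12 ± 0.0283 (adjusted p = 0.0047). The values of Clec4a1 (0.04, adjusted p = 0.48) and Clec4d (-0.02, adjusted p = 0.66) did not pass. Median-ratio scaling moved Clec4e to 0.28, Clec5a to 0.20, Clec4a3 to -0.43, Clec12a to -0.42 and Clec4n to -0.27, all of which still passed. The Clec4a2 difference failed the test without any 1 of the 6 control libraries (adjusted p 0.061 to 0.10) and under upper-quartile (0.13) or median-ratio scaling (0.41). The Clec4a3 difference was -0.18 (adjusted p = 0.11) without the first wild-type control library and also failed without the library of replicate 2 (0.099) or 3 (0.076) of Nlrp3-/- control.

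With LPS+ATP, 0 of the 10 genes were called in either direction between genotypes, beside 4.48% of tested genes called higher and 0.570% called lower in Nlrp3-/- cells. With no fold limit, 2 were higher and 5 lower, beside 35.9% and 12.6%. Clec5a was higher by 0.38 ± 0.0572 (adjusted p = 0.00022) and Clec4a1 by 0.34 ± 0.0434 (adjusted p = 5.5e-05). The 3 receptors called higher with LPS+ATP in wild type were lower in Nlrp3-/- cells, unlike Clec4a1, which had risen short of the fold limit. Their differences were -0.65 ± 0.0283 for Clec4n (adjusted p = 1.1e-08), -0.31 ± 0.0482 for Clec4e (adjusted p = 0.00025) and -0.30 ± 0.0353 for Clec4d (adjusted p = 3.2e-05). Clec12a differed by -0.18 ± 0.0320 (adjusted p = 0.00071). Clec7a differed by -0.15 ± 0.0497 (adjusted p = 0.030), and this failed the test without the first or second wild-type or the second or the third Nlrp3-/- LPS+ATP library (adjusted p 0.065 to 0.10). Median-ratio scaling moved Clec5a to 0.20, Clec4a1 to 0.15, Clec4d to -0.49, Clec4e to -0.51, Clec12a to -0.37 and Clec7a to -0.34, all of which passed with it. Clec4a3 (0.20, adjusted p = 0.11), Clec4a2 (0.15, adjusted p = 0.18) and Clec10a (-0.05, adjusted p = 0.75) did not pass. Clec4a3 did pass without the first wild-type control library (adjusted p = 0.047) or the third wild-type LPS+ATP library (0.28, adjusted p = 0.039). The median over the 10 genes was 0.01 in control and -0.10 with LPS+ATP, against 0.09 and 0.11 over all tested genes.

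The responses of the genotypes were compared directly by the interaction, the Nlrp3-/- response minus the wild-type response on the log2(FPKM + 1) scale. None of the 10 genes was called with the fold limit, beside 0.721% of tested genes called higher and 1.43% lower. With no fold limit, 7 of the 10 passed, 3 above 0 and 4 below, beside 14.7% and 13.0% of all tested genes. The median was -0.03 for the 10 genes and 0.02 for all. The rises of Clec4e (-0.74 ± 0.0682, adjusted p = 1.8e-05), Clec4n (-0.53 ± 0.0400, adjusted p = 4.3e-06) and Clec4d (-0.28 ± 0.04995, adjusted p = 0.0018) were smaller in Nlrp3-/- cells. The rise of Clec4a1 was larger by 0.30 ± 0.0614 (adjusted p = 0.0038). The fall of Clec7a was larger in Nlrp3-/- cells (-0.79 ± 0.0703, adjusted p = 1.3e-05), and those of Clec10a (0.75 ± 0.157, adjusted p = 0.0046) and Clec4a3 (0.48 ± 0.136, adjusted p = 0.022) were smaller. The Clec10a value had an adjusted p of 0.18 with a pseudocount of 0.1, and over 20 alternatives its adjusted p ran from 0.00026 to 0.18. That of Clec4a3 did not pass without the first wild-type LPS+ATP, the second Nlrp3-/- control or the third Nlrp3-/- LPS+ATP library (adjusted p 0.051 to 0.053). Clec12a (0.09, adjusted p = 0.17), Clec4a2 (-0.09, adjusted p = 0.62) and Clec5a (0.04, adjusted p = 0.79) did not pass. The genotypes also differed in donor sex, in Nnt, in granulocyte, monocyte and fibroblast markers and in some macrophage markers. The part of these in the receptor differences was not tested.

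**Figure D4:**
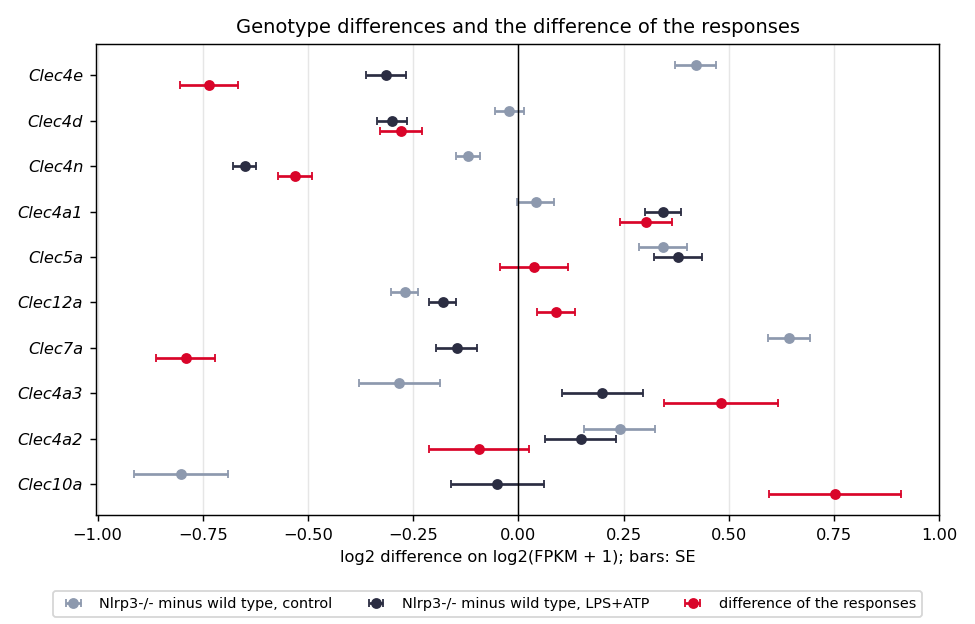
Difference between Nlrp3-/- and wild-type BMDMs in control and with LPS+ATP, and the difference of their responses, for each receptor gene (x axis, log2 scale, with bars for the SE). Clec7a and Clec4e lie right of 0 in control (0.64 and 0.42) and left of 0 with LPS+ATP (-0.15 and -0.31), and Clec5a lies right of 0 in both states.

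The Clec4 genes of the set lie in one cluster on chromosome 6, in the order Clec4a1, Clec4a3, Clec4a4, Clec4b1, Clec4a2, Clec4b2, Clec4n, Clec4d and Clec4e, the last on the opposite strand. The 3 genes at the Clec4e end were those called higher with LPS+ATP in wild type, while Clec4a3 and Clec4a2 fell and Clec4a1 at the other end rose. Of the genes between them that are not among the 10, Clec4a4 was at most 1.18 FPKM in any library and was not tested. Clec4b1 went from 1.16 ± 0.155 to 0.0201 ± 0.0348 FPKM in wild type and from 0.870 ± 0.228 FPKM to a listed 0 in Nlrp3-/- cells. Clec4b2 was 0.420 ± 0.276 FPKM in control cells of wild type, 2.70 ± 1.03 FPKM in those of Nlrp3-/- mice and at most 0.141 FPKM in any LPS+ATP library. Clec12a and Clec7a lie farther along the chromosome with Clec12b, Clec1b, Clec9a and Clec1a between them, of which Clec1b alone was tested. Clec1b, the platelet receptor CLEC-2, was 1.05 ± 0.0870 and 2.24 ± 0.273 FPKM in control cells of the genotypes (wild type given first) and 0.977 ± 0.115 and 0.605 ± 0.0485 FPKM with LPS+ATP.

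**Figure D5:**
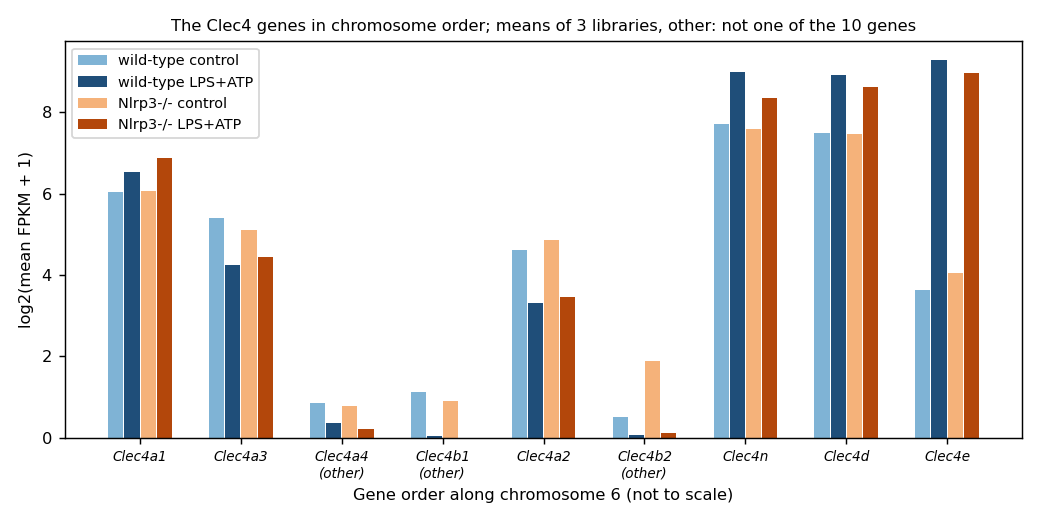
Level of the 9 genes of the Clec4 cluster as log2(mean FPKM + 1) (y axis, bars from 0, no error drawn), in chromosome order and by group. The bars of Clec4n, Clec4d and Clec4e are taller with LPS+ATP, those of Clec4a3 and Clec4a2 shorter, and Clec4a4, Clec4b1 and Clec4b2 stay low.

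The signaling genes used by these receptors were counted from lists. Of 17 adaptors and kinases, all tested, 2 were called higher and 4 lower with LPS+ATP in wild type and 1 and 2 in Nlrp3-/- cells, beside 8.25% and 11.2% of all tested genes in wild type and 6.64% and 8.21% in Nlrp3-/- cells. Their median log2 fold change was -0.23 and -0.39, against -0.26 and -0.24 for all tested genes. The kinase Src rose from 3.61 ± 0.839 to 13.3 ± 3.02 FPKM in wild type (log2 1.63, adjusted p = 9.9e-06). Tyrobp, the DAP12 chain, fell from 536 ± 50.6 to 183 ± 8.53 FPKM in wild type (log2 -1.54, adjusted p = 8.0e-10) and from 440 ± 5.85 to 176 ± 6.46 FPKM in Nlrp3-/- cells (log2 -1.32, adjusted p = 4.2e-09). The exchange factor Vav3 fell by 1.98 on the log2 scale in wild type (adjusted p = 9.0e-11) and by 2.11 in Nlrp3-/- cells (adjusted p = 7.3e-11). Src was also the 1 gene of this list called between genotypes, higher by 1.236 in Nlrp3-/- control cells (adjusted p = 0.00022). None of the 17 was called for the interaction with the fold limit.

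Of 16 genes from CARD9 to NF-κB, 4 were called higher and 2 lower with LPS+ATP in wild type and 3 and 1 in Nlrp3-/- cells, with medians of 0.30 and 0.29 against -0.26 and -0.24 for all tested genes, of which the shares called were again 8.25% and 11.2%, and 6.64% and 8.21%. Malt1, the protease of the CARD9 complex, rose from 1.49 ± 0.271 to 28.3 ± 0.664 FPKM in wild type (log2 3.56, adjusted p = 8.0e-12) and from 1.62 ± 0.276 to 21.1 ± 0.205 FPKM in Nlrp3-/- cells (log2 3.08, adjusted p = 3.6e-11). Nfkbia and Nfkb2, an inhibitor and a subunit of NF-κB, rose by 2.64 and 2.22 on the log2 scale in wild type and by 2.08 and 1.83 in Nlrp3-/- cells (adjusted p of 9.9e-14, 6.7e-13, 8.9e-13 and 4.1e-12), and Nfatc2 fell by 1.66 and 1.45 (adjusted p of 4.2e-10 and 1.9e-09). Of 11 phosphatases and other negative regulators, 2 were called higher and 2 lower in wild type and 2 and 0 in Nlrp3-/- cells, beside the same shares, with medians of -0.14 and -0.07. Socs1, which inhibits cytokine signaling, rose from 0.584 ± 0.130 to 28.4 ± 0.876 FPKM in wild type (log2 4.21, adjusted p = 8.2e-13) and from 0.674 ± 0.157 to 21.7 ± 0.607 FPKM in Nlrp3-/- cells (log2 3.77, adjusted p = 2.6e-12). Inpp5d, the lipid phosphatase SHIP-1, fell by 1.07 in wild type (adjusted p = 1.6e-10) and differed by -0.74 in Nlrp3-/- cells. In neither list was any gene called between genotypes or for the interaction with the fold limit.

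Of 46 other genes for C-type lectin-like receptors, 21 passed the filter on low values. With LPS+ATP, 6 of the 21 were called higher and 5 lower in wild type and 4 and 5 in Nlrp3-/- cells, where all tested genes gave 8.25% and 11.2%, and 6.64% and 8.21%. Cd69, an early activation marker, rose from 0.283 ± 0.0508 to 13.9 ± 0.215 FPKM in wild type (log2 3.54, adjusted p = 2.4e-13), and Olr1, the receptor for oxidized low-density lipoprotein, rose by 2.44 (adjusted p = 7.8e-12). Mrc1, the mannose receptor, fell from 95.5 ± 2.83 to 14.0 ± 0.607 FPKM in wild type (log2 -2.69, adjusted p = 3.5e-13) and from 62.8 ± 1.16 to 12.8 ± 0.627 FPKM in Nlrp3-/- cells (log2 -2.21, adjusted p = 2.3e-12). Cd93 fell by 3.61 and 3.10 on the log2 scale (adjusted p of 3.4e-14 and 1.5e-13). Between genotypes, 4 were called higher and 0 lower in Nlrp3-/- control cells (Cd248, Mrc2, Clec4b2 and Colec12) and 2 and 0 with LPS+ATP (Mrc2 and Cd248), beside 6.02% and 0.689%, and 4.48% and 0.570%, of all tested genes. For the interaction 1 was called above 0 (Cd72) and 3 below, among them Clec4b2 and Selp, beside 0.721% and 1.43%. All 5 fibroblast markers were also called higher in Nlrp3-/- control cells, and 4 of them with LPS+ATP. The part of such cells in the genotype differences of these other receptor genes was not tested.

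The genes most like 4 of the receptors were found by Pearson's r of log2(FPKM + 1) over the 12 libraries, which fall into the 4 groups, so that r mainly compares 4 group means and is a description. Il1b and Tnf, which encode interleukin-1β and tumor necrosis factor, and the chemokine gene Ccl2 followed Clec4e with r of 0.9997, 0.9996 and 0.9996. Il1b went from 0.239 ± 0.0561 to 1386 ± 18.99 FPKM in wild type and from 1.46 ± 0.257 to 995 ± 1.26 FPKM in Nlrp3-/- cells. Itga8, Olfm1 and Jup were most like Clec7a (r of 0.9939, 0.9917 and 0.9873), with Olfm1 at 6.92 ± 0.232 and 3.74 ± 0.418 FPKM in wild-type and 9.86 ± 0.178 and 3.43 ± 0.118 FPKM in Nlrp3-/- control and LPS+ATP cells. Pdxk, Nxpe1-ps and Mnt were most like Clec10a (r of 0.9956, 0.9956 and 0.9954), and Wdr7, Nostrin and Plxnc1 were most like Clec12a (r of 0.9979, 0.9972 and 0.9968). At least 0.95 was reached with 939 genes for Clec4e, 161 for Clec7a, 1141 for Clec10a and 1020 for Clec12a.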

How the data were processed

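RNA from BMDMs was sequenced in 12 libraries, 3 in each of 4 groups, and the groups and replicate numbers were taken from the sample labels. The values, as deposited by the authors, are FPKM in a single table of genes by libraries, and 0 columns of per-sample values were left unused. The submitters' processing notes name GRCm39 and DESeq2 1.24.0, while the aligner and the gene counter are not given in the sources used here. Because FPKM holds no counts of reads, depth is unknown and no count test was run. The steps seen among the lowest values put the relative depth at 1.0 to 1.22, and total FPKM per library was 283278 to 299393.

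Limma 3.58.1 in R 4.3.3 was run on log2(FPKM + 1) for the 12622 of 55335 genes that reached 1 FPKM in at least 3 libraries, with one mean per group, a variance trend and Benjamini-Hochberg adjustment over all tested genes, after the test was checked on simulated data. Fold changes on this scale understate those of low genes. Ratios of means are given beside them. Gene order and near copies came from GENCODE M21 (55154 of 55335 identifiers matched, blastn 2.17.0+), and promoters from RefSeq (GRCm38.p6). Python 3.11.15, numpy 2.4.6, pandas 2.3.3 and matplotlib 3.10.9 were used for tables and plots. The 10 receptors, the gene lists, the marker lists and the motifs were chosen with earlier results of these data known. All 10 receptors, Nlrp3, up to 4 called genes per list and comparison, cluster neighbours, and the 3 most alike genes of Clec4e, Clec7a, Clec10a and Clec12a were named, and Mgl2, Nnt, the Y-linked genes, Xist and, after their values were seen, some markers were named as checks. Some genes that this rule names are not reported here. Alternatives were another pseudocount (0.1), other filters (none, or 5 FPKM), no fold limit, TPM, scaling by the upper quartile or by the median ratio, no variance trend, a replicate block, the compared groups alone and each library left out.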

Additional observations from a re-analysis of the deposited data

Results flagged for a closer look

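For 7 of the 10 receptor genes, the response to LPS+ATP differed between genotypes by the interaction term in limma at an adjusted p under 0.05. The Nlrp3-/- response minus the wild-type response was -0.79 for Clec7a, -0.74 for Clec4e, -0.53 for Clec4n and -0.28 for Clec4d. It was 0.75 for Clec10a, 0.48 for Clec4a3 and 0.30 for Clec4a1. The Clec10a value did not pass with a pseudocount of 0.1 (adjusted p = 0.18). That of Clec4a3 did not pass with no filter on low values (adjusted p = 0.056) or without some single libraries (0.051 to 0.053). At this limit 14.7% of tested genes were above 0 and 13.0% below. The sign of a difference between responses does not say which state it comes from. Clec7a and Clec4e were higher in Nlrp3-/- control cells and lower in Nlrp3-/- LPS+ATP cells. Clec4n was lower in Nlrp3-/- cells in both states, by more with LPS+ATP. Clec4d was lower in Nlrp3-/- cells with LPS+ATP, and its control difference did not pass the test with the deposited scaling. Clec10a was lower in Nlrp3-/- control cells and near 0 in both genotypes with LPS+ATP.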

How the results depend on the processing

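Among the receptor counts under the alternatives, 208 stayed within 1.5 times the reported count and 10 moved. The reported counts between genotypes and for the interaction were 0, and 0 against 0 was taken as unmoved. The loss of the Clec4a3 call in wild type under upper-quartile and median-ratio scaling also stayed within 1.5 times. With no fold limit, 5 genes were lower with LPS+ATP in wild type, 4 higher and 5 lower in Nlrp3-/- cells, 4 higher and 4 lower between genotypes in control, 2 higher and 5 lower with LPS+ATP, and 3 higher and 4 lower for the interaction. With median-ratio scaling, 4 were higher with LPS+ATP in Nlrp3-/- cells, Clec4a1 (1.10) and Clec4n (1.05) having passed the fold limit. That scaling moved the overall median for LPS+ATP by 0.25 (wild type) and 0.23 (Nlrp3-/-) and by -0.12 and -0.15 between genotypes in control and with LPS+ATP, and upper-quartile scaling moved the first pair by 0.13 and 0.10. Leaving out any library left the counts with LPS+ATP at 3 and 3 in wild type and 2 and 3 in Nlrp3-/- cells. Signs turned for values that did not pass the test. Those were Clec4a1 between genotypes in control (-0.031 with upper-quartile and -0.11 with median-ratio scaling), Clec4a2 between genotypes with LPS+ATP (-0.025 with median-ratio scaling), Clec5a with LPS+ATP in wild type (-0.039 to 0.076 over libraries left out, below 0 without the second library of either group) and the Clec5a interaction (-0.0071 with upper-quartile scaling, -0.024 to 0.092 over libraries left out, below 0 without the first library of either wild-type group). Of 50 member values, 9 crossed an adjusted p of 0.05 in some setting. Besides those in the text, Clec4d between genotypes in control passed with median-ratio scaling (-0.17, adjusted p = 0.0022). The Clec7a difference with LPS+ATP failed with TPM (adjusted p = 0.061) and with no filter (0.068), as did, with no filter, the control differences of Clec4a2 (0.074) and Clec4a3 (0.070) and the Clec4a3 interaction (0.056). The control difference of Clec4a3 also failed with the compared groups alone (0.053). The cause of these changes was not tested.

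Same-numbered libraries did not deviate together (correlations of -0.057 to 0.053), and the main test did not pair them. With 3 libraries per group, this check cannot exclude that equal numbers mark a shared mouse or culture. With a replicate block, the counts with LPS+ATP were again 3 and 3 in wild type and 2 and 3 in Nlrp3-/- cells, and the other counts were 0.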
